A study of Mus musculus with 20 samples.

Results

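All blastocyst pools that had received a let-7f mimic were taken as 1 group and set against all vehicle pools, to see which genes and functions come out of the larger group and of neither concentration on its own. Of the 20 libraries of the series, 13 were mimic pools, chosen by their labels, and 7 were vehicle pools. Each library held RNA of 10 blastocysts, grown in KSOM, a simple embryo culture medium, from wild-type zygotes of the strain F1 C57BL/6Jx129S1/SvlmJ. Every zygote was microinjected, vehicle zygotes with nuclease-free water and the others with a let-7f-5p mimic built with locked nucleic acids and dissolved in that same water. The 13 pools joined 8 Str let-7f pools, whose concentration was tied to the sperm content of stressed males, and 5 2x Str let-7f pools at the doubled concentration. No group received an unrelated mimic, so effects of injected RNA as such and of the let-7f sequence cannot be told apart here, and each pool averages 10 embryos whose sex the labels do not give.

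let-7 microRNAs are small guides that accumulate as cells differentiate and that repress genes of the early embryo. The bases near the 5′ end, called the seed, pair with matching sites in the 3′ untranslated region (UTR) of a messenger RNA and lower its stability and translation. The blastocyst is the first stage with separate lineages. Its outer trophectoderm is an epithelium sealed by junctions and desmosomes, and its inner cell mass holds the epiblast and the primitive endoderm, which secretes the first basement membrane.

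The guide and 4 of its candidate sites are shown because the sites lie in genes that were lower in the pooled comparison and were called at neither concentration alone. Below them stand sites of 3 long-known targets and of 3 genes that were higher in the same class. Capitals mark the seed, bases 2 to 8 of the guide, and the 8-base site CTACCTCA that pairs with it. The guide comes from RefSeq (GRCm38.p6) and was identical to the injected mimic. The sites were read on the gene's strand from the longest GENCODE M21 UTR on GRCm38, a build other than that of the counts, so no genome coordinates are given.
let-7f-5p: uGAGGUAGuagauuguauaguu
Igf2bp2: cacacaaataaaagCTACCTCAggtg
Hic2: cagggacccctcccCTACCTCAcctt
Tepsin: ccccaactcccaggCTACCTCAgtcc
Dnase1l2: tgaactaacatcacCTACCTCAtcgg
Lin28a: cacagcctgttgaaCTACCTCAtttt
Trim71: acattgcctaagtcCTACCTCAgctt
Igf2bp1: ctgtgcgaagtaaaCTACCTCAaggt
Marveld2: ttgtaaaatgatacCTACCTCAtagg
Chmp4c: tcacatttgcaataCTACCTCAatga
Ehhadh: ctctctgtatcttcCTACCTCAtaat

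The Igf2bp2 site, on chromosome 16, began 1313 bases after the stop codon in a UTR of 1784 bases. That of Hic2, also on chromosome 16, began 3717 bases into a UTR of 4262 bases. Those of Tepsin (chromosome 11) and Dnase1l2 (chromosome 17) began 528 and 197 bases after the stop codon. The long-known targets held more than 1 copy, with 2 sites in Lin28a, 4 in Trim71 and 3 in Igf2bp1, of which the one nearest the stop codon is shown.

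The authors' values are normalized counts per gene. Their table named 16014 genes, and the 15068 with a normalized count of at least 10 in at least 5 of the 20 libraries were tested with limma on log2(normalized count + 1). A gene is called here when its Benjamini-Hochberg adjusted p over all genes tested was under 0.05, two-sided, and fold changes are differences on that log2 scale with their standard error (SE). Depth ran from 1.54 to 58.8 M reads per library with a mean log2 difference of -0.29 between mimic and vehicle (exact permutation p = 0.692, two-sided). Defining markers of epiblast, primitive endoderm and trophectoderm had reads in every library. The mean level of 4 Y-linked genes differed by 0.09 on the log2 scale (exact permutation p = 0.687, two-sided). Of markers of sperm, 5 of 5 were not in the table, and so were 4 of 6 stromal markers. Whole profiles of mimic and vehicle pools differed beyond the spread between pools, with a pseudo-F of 1.95 (exact permutation p = 1.29e-05, the smallest that 77520 splits can give).

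With all mimic pools 606 genes were called, 4.02% of those tested, of which 406 were higher (2.69%) and 200 lower (1.33%). For comparison, 2490 genes had an unadjusted p under 0.05. Each concentration alone called fewer genes against the same 7 vehicle pools, namely 397 for Str let-7f (2.63%) and 285 for 2x Str let-7f (1.89%). The median SE over all genes was 0.27 with all mimic pools, 0.30 for Str let-7f and 0.34 for 2x Str let-7f. Of the calls, 293 higher and 133 lower genes were also called at a single concentration. The other 180, which are 1.19% of all genes tested, were called at neither, 113 higher (0.75%) and 67 lower (0.445%). The share of higher genes in it was 62.8%, against 44.6% with edgeR on recovered reads, where the class held 79 higher and 98 lower genes. This class was defined from the same p-values, and a call with all pools but not with fewer is no difference between the concentrations. The pools of both groups did not overlap at all for 73 genes (0.484%), 54 with all 13 mimic pools above every vehicle pool and 19 with all 13 below.

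**Figure D1:**
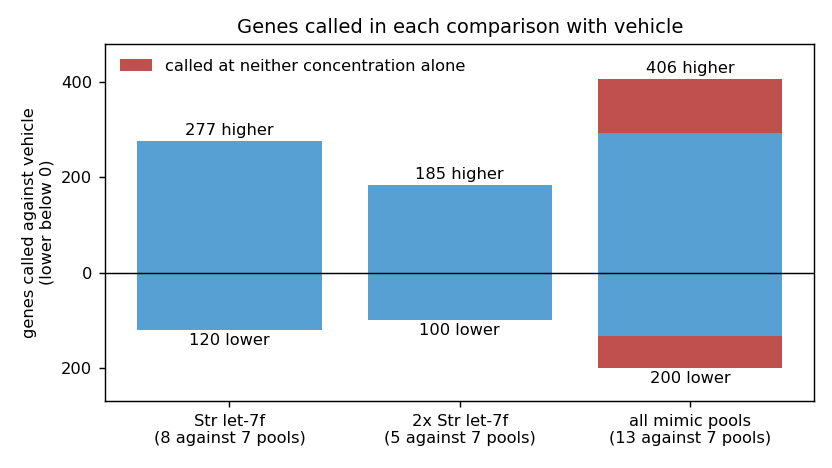
The bars give the number of genes called against the 7 vehicle pools (limma adjusted p under 0.05) for Str let-7f, 2x Str let-7f and all mimic pools, with higher genes above 0 and lower genes below 0. Red marks the 113 higher and 67 lower genes called with all mimic pools and at neither concentration alone, and blue marks all other calls.

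The 180 genes lay close to the threshold, as their definition largely fixes. Their median fold change in either direction was 0.87 on the log2 scale, and 75 changed more than 2-fold. In Str let-7f their limma adjusted p ran from 0.0512 to 0.174, and 103 of them lay under 0.1. In 2x Str let-7f it ran from 0.0508 to 0.345, with 66 under 0.1. Between both concentrations 0 of the 180 had an unadjusted limma p under 0.05 (lowest 0.19), and the 95% interval of that difference reached a median of 0.58 to either side. Over all genes tested 608 (4.035%) had such a p. The definition of the class favours genes with similar fold changes at both concentrations, so the count of 0 is no evidence that the concentrations agree. Only 3 of them had pools that did not overlap, Hic2 and Seh1l, which were lower, and Lonrf1, which was higher (the last 2 chosen after their values were seen). Leaving out 1 library left between 40 and 165 of the 180 called, the fewest without vehicle replicate 2, and no gene changed direction. In the 15 libraries over 5 M reads 30 of them were called.

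Genes that rose in this class ranged from epithelial junction genes to enzymes and signalling proteins. For single genes the 3 values of a group are the lowest, the median and the highest pool in normalized counts. Ocln encodes occludin, a membrane protein of tight junctions. It stood at 350, 537 and 639 in vehicle pools and at 545, 731 and 874 in mimic pools, so that 12 of 13 mimic pools lay above every vehicle pool. The fold change was 0.48 ± 0.12 (SE; limma adjusted p = 0.0184), while Str let-7f alone gave 0.44 (limma adjusted p = 0.0862) and 2x Str let-7f alone 0.56 (limma adjusted p = 0.0522). Pon2, a paraoxonase that limits oxidative damage inside cells, stood at 198, 281 and 311 in vehicle and at 285, 382 and 524 in mimic pools. Again 12 of 13 mimic pools were above all vehicle pools (0.52 ± 0.13, limma adjusted p = 0.0159). Phactr2, of a family that binds actin and protein phosphatase 1, stood at 216, 340 and 469.8 in vehicle and at 384, 505 and 757 in mimic pools. Its groups overlapped more, with 8 mimic pools above every vehicle pool (0.66 ± 0.16, limma adjusted p = 0.014).

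Arrdc4, an arrestin-domain gene that responds to glucose, showed the largest rise of the 12 higher genes taken by smallest p. It stood at 0, 73.9 and 125 in vehicle and at 62.6, 235 and 362 in mimic pools, 12 of which lay above every vehicle pool (2.78 ± 0.67, limma adjusted p = 0.0159). The forkhead transcription factor gene Foxc1 rose by 1.57 ± 0.38, Rtkn by 1.43 ± 0.35 and Lysmd2 by 1.21 ± 0.29. Crybg3 rose by 1.03 ± 0.25 and Ccdc68, a centriole protein gene, by 0.94 ± 0.24. Smaller rises were those of Fstl1, a secreted follistatin-like glycoprotein (0.64 ± 0.16), Tmem70, an assembly factor of the mitochondrial ATP synthase (0.56 ± 0.14), and Dsc2 (0.46 ± 0.11). Of these 12 genes, 4 stayed called on leaving out any 1 library. The call was lost without vehicle replicate 2 for Foxc1 (limma adjusted p = 0.0501), Crybg3 (0.0523), Arrdc4 (0.054), Dsc2 (0.0624), Tmem70 (0.0604) and Ccdc68 (0.0648), without vehicle replicate 1 for Rtkn (0.051) and Tmem70 (0.0611), without vehicle replicate 3 for Ccdc68 (0.0616) and without vehicle replicate 6 for Fstl1 (0.0522). In the libraries over 5 M reads 6 of the 12 passed, and Foxc1 did not pass in edgeR (adjusted p = 0.0824).

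Among genes that fell in this class, those of collagen IV and its folding led. Col4a2 encodes a chain of collagen IV, the network-forming collagen of basement membranes. It stood at 2743, 3803 and 5362 in vehicle and at 1160, 2153 and 3196 in mimic pools, 9 of which lay below every vehicle pool. The 2x Str let-7f pools stood at 3196, 2587, 1280.4, 1503 and 1963, so that 1 of these 5 lay inside the vehicle range. The fold change was -0.84 ± 0.20 (SE; limma adjusted p = 0.0138), while Str let-7f alone gave -0.80 (limma adjusted p = 0.0529) and -0.90 was found in 2x Str let-7f (limma adjusted p = 0.0686). Serpinh1 encodes the chaperone HSP47, which binds procollagen in the endoplasmic reticulum. It stood at 1547, 2367 and 2645 in vehicle and at 669, 1090 and 2524 in mimic pools, with 10 of 13 below every vehicle pool (-0.95 ± 0.23, limma adjusted p = 0.0144). A single 2x Str let-7f pool, replicate 1, lay among the high vehicle values, while the other 4 stood between 687 and 1163.

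Slc7a1, the main carrier of arginine and lysine in many cells, stood at 1153, 1637 and 2269 in vehicle and at 480.3, 728 and 1914 in mimic pools. Most mimic pools lay low, 10 below every vehicle pool, while the highest lay inside the vehicle range (-1.03 ± 0.25, limma adjusted p = 0.0156). Vim, the intermediate filament gene vimentin, stood at 324, 439 and 729 in vehicle and at 48.5, 166 and 379 in mimic pools. Its fold change was -1.61 ± 0.40 (limma adjusted p = 0.0208), with 9 mimic pools below every vehicle pool. Vim belongs to a list of fibroblast and stromal genes. Of its 7 measured members 2 were called and lower. The summed level of all 7 was 64.8 to 117 reads per 1 M reads (RPM) in vehicle and 24.7 to 73.7 in mimic pools. That sum includes Vim and so partly restates its fall. Col1a2 and Pdgfrb, the stromal markers in the table, together stood at 1.17 to 6.66 RPM in vehicle and 0 to 3.62 in mimic pools. Col1a1, Col3a1, Dcn and Lum of the stromal markers were not in the table. The part of other cells in the change of Vim was not tested.

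The stathmin gene Stmn1, whose protein binds free tubulin, fell by 0.54 ± 0.14 on the log2 scale and Btg3, of a growth-restraining family, by 0.96 ± 0.24. RNA-binding proteins were represented by Hnrnpdl (-0.34 ± 0.08) and Fubp1 (-0.36 ± 0.09), a regulator of Myc. Ralgds, an activator of Ral GTPases, fell by 0.62 ± 0.15 and Fam169a by 0.81 ± 0.20. Kri1, known in yeast for ribosome assembly, fell by 0.59 ± 0.15. Nup62cl stood at 23.8, 42.9 and 179 in vehicle and at 0, 3.02 and 82.3 in mimic pools, and 11 mimic pools lay below every vehicle pool. Its fold change of -3.47 ± 0.85 (limma adjusted p = 0.0173) rests on 633 reads in vehicle and 317 in mimic pools. Mimic pools alone would not have carried Nup62cl past the filter on low values. Of the 12 lower genes taken by smallest p, 5 stayed called on leaving out any 1 library. The call was lost without vehicle replicate 2 for Ralgds (limma adjusted p = 0.0534), Fam169a (0.0597), Kri1 (0.053), Btg3 (0.0724) and Stmn1 (0.0676), without replicate 6 for Kri1 (0.0605) and Fubp1 (0.0597), and without replicate 8 for Btg3 (0.0636) and Fubp1 (0.0628). It was lost for Vim without vehicle replicate 1 (limma adjusted p = 0.051) and for Stmn1 without replicate 3 (0.0695). In the libraries over 5 M reads 2 of the 12 passed, and Nup62cl and Vim did not pass in edgeR (adjusted p = 0.152 and 0.0503).

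**Figure D2:**
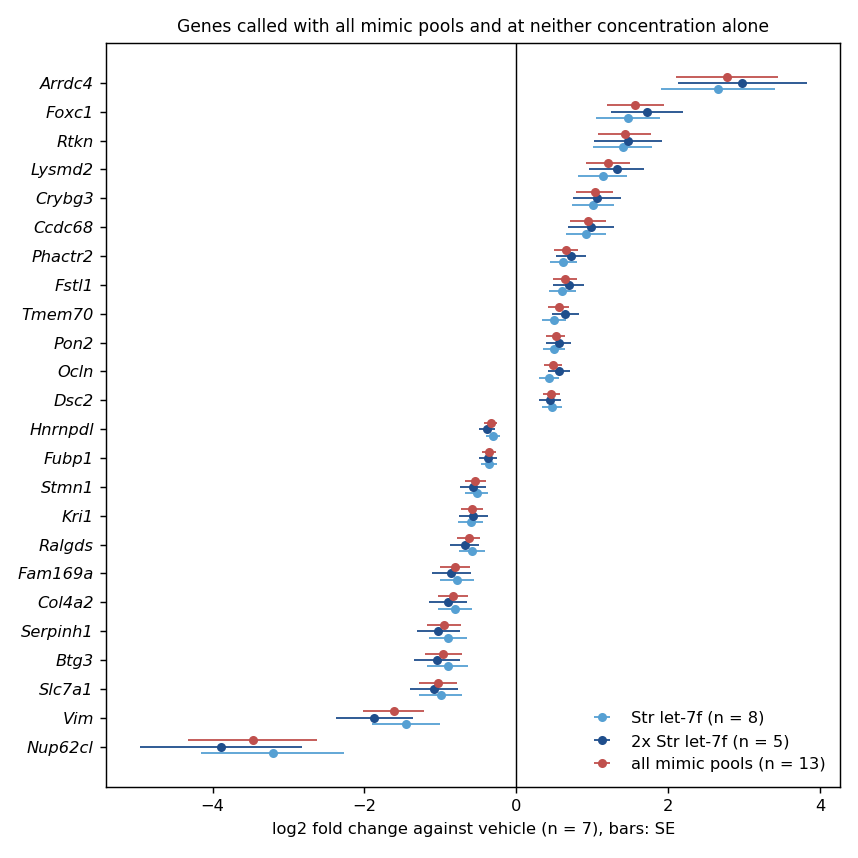
Points are log2 fold changes against the 7 vehicle pools and bars are SE, for the 12 higher and 12 lower genes with the smallest p among those called with all mimic pools and at neither concentration alone. Str let-7f (light blue), 2x Str let-7f (dark blue) and all mimic pools (red) share the vehicle pools, and for each gene the 3 points lie on the same side of 0, as the choice of genes largely fixes.

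Of 30 measured genes of the primitive endoderm 15 were lower and 0 higher, with a median fold change of -0.91 against -0.01 over all genes tested. Over all genes tested 1.33% were lower and 2.69% higher, the shares to set beside the counts of this list and those below. Members of the lists were chosen with earlier results of these data known, so the counts partly restate that choice and are no test. The larger group added Col4a2, Serpinh1 and Srgn, which encodes the granule proteoglycan serglycin. Srgn stood at 24.7, 236 and 285 in vehicle and at 6.65, 34.0 and 188 in mimic pools, with only 3 mimic pools below every vehicle pool (-1.91 ± 0.53, limma adjusted p = 0.0408). Nid2, the basement membrane protein nidogen-2, was called at both concentrations and fell from 961, 1299.6 and 1749 to 216, 301 and 493.3, without overlap (-2.05 ± 0.16, limma adjusted p = 1.09e-08). Gata4 and Sox7, transcription factor genes of this lineage named after their values were seen, fell by 1.17 ± 0.25 and 2.48 ± 0.52 on the log2 scale. Gata6, Pdgfra and Sox17, named likewise, stood at 0.34 ± 0.16, -0.29 ± 0.16 and -0.23 ± 0.16 (limma adjusted p = 0.296, 0.366 and 0.522). The 6 defining markers fixed for this lineage together stood at 2234 to 5240 RPM in vehicle and at 2307 to 4291 RPM in mimic pools. In these pools of whole blastocysts, fewer cells of a type and less RNA per cell cannot be told apart. Srgn did not pass without any 1 of 13 libraries (highest limma adjusted p = 0.101, vehicle replicate 3). Of the list, 11 were lower and 0 higher in the libraries over 5 M reads.

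Lists of the basement membrane and of collagen handling share members with the primitive endoderm list. Of 27 measured matrix genes 8 were lower and 1 higher, and of 22 genes of collagen processing and the secretory lumen 4 were lower and 0 higher (medians -0.11 and -0.36). Lamc1 and Lamb1, chains of laminin, fell by 1.00 ± 0.15 and 1.01 ± 0.16 on the log2 scale (limma adjusted p = 0.000211 and 0.000354), Lamc1 from a median normalized count of 13176 in vehicle to 6602 and Lamb1 from 9861 to 4850. The higher gene was Lama3, a laminin chain of epithelia named after its values were seen (1.30 ± 0.27, limma adjusted p = 0.00521). Beside Serpinh1, the lower genes of the secretory lumen were Rcn1 and Rcn3, calcium-binding reticulocalbins, and Ckap4, a reticulum membrane protein. Ckap4 fell by 1.05 ± 0.14 and Rcn1 by 1.57 ± 0.22, both with all 13 mimic pools below every vehicle pool. Rcn3 fell by 2.74 ± 0.70, a call lost without vehicle replicate 2 (limma adjusted p = 0.0683) or replicate 6 (0.0519) and in edgeR (adjusted p = 0.0517).

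**Figure D3:**
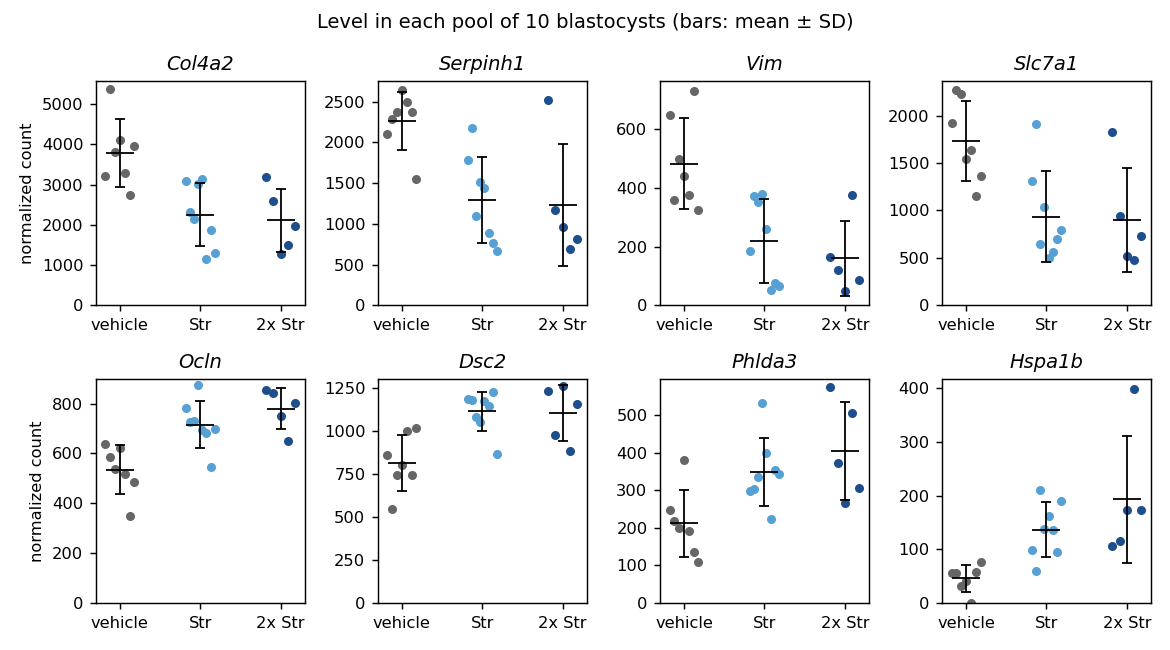
Each point is the normalized count of 1 pool, and bars give the mean ± SD of the 7 vehicle, 8 Str let-7f and 5 2x Str let-7f pools, for 8 genes called with all mimic pools and at neither concentration alone. Col4a2, Serpinh1, Vim and Slc7a1 lie lower and Ocln, Dsc2, Phlda3 and Hspa1b higher in most mimic pools, and the groups overlap for each of the 8.

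Of 54 measured genes of the known let-7 target list 7 were lower and 1 higher, with a median fold change of -0.16. Lin28a, whose product keeps let-7 precursors from maturing, stood at 1378, 1474 and 1969.7 in vehicle and at 412, 556 and 1252 in mimic pools, without overlap (-1.35 ± 0.17, limma adjusted p = 2.52e-05). Trim71, a developmental ubiquitin ligase, fell by 0.80 ± 0.12 and Igf2bp1, an mRNA-binding protein gene, by 0.53 ± 0.09. The larger group added Igf2bp2 and Myc. Igf2bp2, a relative of Igf2bp1, stood at 3030.1, 3739 and 4367 in vehicle and at 2327, 2799 and 3841 in mimic pools. Its groups overlapped, with 9 mimic pools below every vehicle pool (-0.36 ± 0.10, limma adjusted p = 0.0437). Myc, the growth-promoting transcription factor, stood at 351, 449 and 490 in vehicle and at 120, 268 and 452 in mimic pools (-0.74 ± 0.21, limma adjusted p = 0.0493). The classical target Hmga2, which binds AT-rich DNA, did not pass at 0.07 ± 0.12 (limma adjusted p = 0.832). The calls of Igf2bp2 and Myc ended without any 1 of 12 and any 1 of 15 libraries (at most 0.116, vehicle replicate 1, and 0.0985, vehicle replicate 6; limma adjusted p), and Myc did not pass in edgeR (adjusted p = 0.0679). Among targets 4 were lower and 1 higher in the libraries over 5 M reads.

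The class held 3 other lower genes with the 8-base site. Hic2, a zinc finger repressor gene, stood at 2085, 2236 and 3019 in vehicle and at 1159, 1844 and 2063 in mimic pools. All 13 mimic pools lay below every vehicle pool (-0.44 ± 0.11, limma adjusted p = 0.0253). Tepsin, an accessory protein of the AP-4 vesicle coat, stood at 219, 350 and 490.1 against 98.1, 199 and 348 (-0.75 ± 0.21, limma adjusted p = 0.0388). Dnase1l2, a nuclease gene of keratinising epithelia, was low in all pools, at 3.08, 22.4 and 56.2 against 0, 2.22 and 19.2 (-2.67 ± 0.73, limma adjusted p = 0.0357). Mimic pools alone would not have carried Dnase1l2 past the filter on low values, which limits what its call can mean. Hic2 lost its call in 3 of 20 fits with 1 library left out (limma adjusted p = 0.0799, 0.0584 and 0.0524 without vehicle replicates 1, 6 and 5). It ended that of Tepsin in 11 (highest 0.101, without vehicle replicate 8) and that of Dnase1l2 in 9 (highest 0.0938, without vehicle replicate 6), and Dnase1l2 did not pass in edgeR (adjusted p = 0.0935).

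Across genes, the share with the 8-base let-7 site is given for each class of call, with no test. A 3′ UTR was annotated for 13434 genes, and CTACCTCA was found in 497 of these (3.70%). Among all genes called lower it was 15 of 195 (7.69%), and among all genes called higher 8 of 383 (2.09%). In lower genes that were called at neither concentration alone it was 4 of 66 (6.06%), against 11 of 129 (8.53%) in the other lower genes. Only a 7-base match, CTACCTC or TACCTCA, was present in 1852 genes (13.8%), in 34 lower genes (17.4%) and in 41 higher genes (10.7%). The median fold change was -0.06 with the 8-base site, -0.02 with a 7-base match and -0.01 without a match, and 56.3%, 52.6% and 50.8% of these genes lay below 0. UTRs with the 8-base site were longer, at a median of 2594 bases against 988 in genes without a match, so UTR length moved with the kind of match. The median UTR length was 1165 bases in lower genes, 1198 in higher genes and 1186 in all genes. Lower genes called at neither concentration alone had a median of 980.5 bases, against 1331 in the other lower genes. In higher genes these medians were 1183 and 1216.5. The lower share with the site in the former lower genes thus went with shorter UTRs, and the part of UTR length was not tested. A match is a description of letters, not evidence of a working site, and Marveld2, Ehhadh and Chmp4c, shown above, held the site and were higher.

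**Figure D4:**
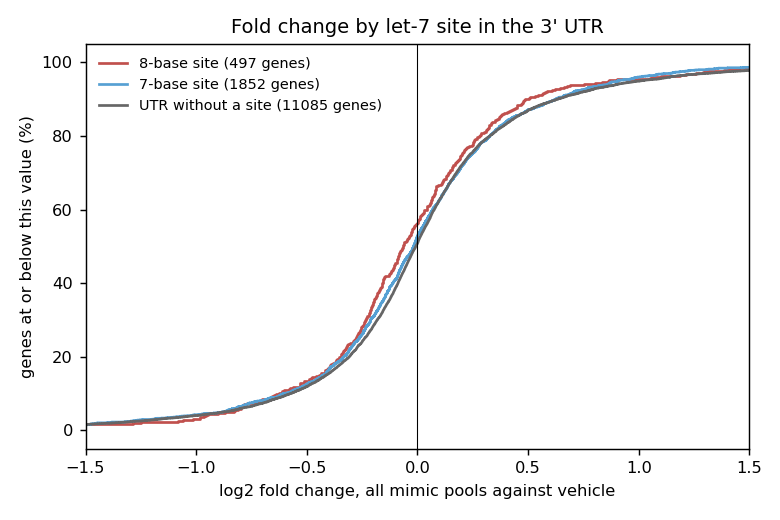
Cumulative share of genes (%) at or below a log2 fold change, all mimic pools against vehicle, for genes whose 3′ UTR holds the 8-base let-7 site (red, 497), a 7-base match (blue, 1852) or neither (grey, 11085). The red curve runs slightly to the left of the others around 0, with a median of -0.06 against -0.01 for genes without a match.

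Of 15 measured genes of desmosomes and plakins, the cytolinkers that tie junctions to intermediate filaments, 8 were higher and 0 lower, with a median fold change of 0.42. The plakin genes Ppl, Eppk1 and Plec, called at both concentrations, rose by 2.42 ± 0.14, 1.93 ± 0.20 and 0.77 ± 0.08, each with all 13 mimic pools above every vehicle pool. The larger group added Dsc2, which encodes desmocollin-2, the desmosomal cadherin. It stood at 546, 801 and 1017 in vehicle and at 869, 1160.1 and 1265 in mimic pools, with 10 of 13 above every vehicle pool (0.46 ± 0.11, limma adjusted p = 0.0196). Without vehicle replicate 2 its limma adjusted p was 0.0624. Of the 15, 7 were higher in the libraries over 5 M reads.

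Tight and adherens junctions held too few calls to read as a result about junctions. Of 33 measured genes 4 were higher and 0 lower (12.1% called, against 4.02% of all genes tested). Beside 180 of 606 calls over all genes tested, 3 of these 4 were called at neither concentration alone. They were Ocln, Cgnl1, whose protein paracingulin links junctions to the cytoskeleton, and Marveld2, which encodes tricellulin, the seal where 3 cells meet. The fourth, Lsr, encodes angulin-1, which recruits tricellulin to those corners, and rose by 0.52 ± 0.11 (limma adjusted p = 0.00414). Cgnl1 stood at 3853, 4094 and 4722 in vehicle and at 4224, 5025 and 5920.1 in mimic pools, 9 of them above every vehicle pool (0.28 ± 0.07, limma adjusted p = 0.0321). Marveld2 stood at 105, 152 and 195 against 160.1, 238 and 278, with 10 mimic pools above every vehicle pool (0.57 ± 0.16, limma adjusted p = 0.0439). The median of the list was 0.08, close to that of all genes. The call of Cgnl1 ended on leaving out single libraries in 7 of 20 cases and of Marveld2 in 15 (limma adjusted p up to 0.0801, vehicle replicate 3, and up to 0.123, vehicle replicate 2). Marveld2 did not pass in edgeR (adjusted p = 0.053), and 1 member passed in the libraries over 5 M reads.

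Of 33 measured genes of tubulins and microtubule proteins 6 were lower and 3 higher. Tubb5, a beta-tubulin gene, fell from a median normalized count of 6768 to one of 4491 (-0.65 ± 0.11, limma adjusted p = 0.000577), while Tuba4a rose from 472 to 1053 (0.90 ± 0.14, limma adjusted p = 0.000379). The larger group added Stmn1 and Tubb2b. Stmn1 stood at 462, 586 and 805 in vehicle and at 272, 412 and 563 in mimic pools (limma adjusted p = 0.0211). Tubb2b stood at 140.1, 237 and 332 against 22.9, 82.4 and 244, with 10 mimic pools below every vehicle pool (-1.47 ± 0.40, limma adjusted p = 0.0343). Tubulin copies are alike in sequence, so the split of reads among them is uncertain. Tubb2b did not pass without any 1 of 6 libraries (highest limma adjusted p = 0.0835, vehicle replicate 2) or in edgeR (adjusted p = 0.0739), and Stmn1 without vehicle replicates 3 (0.0695) or 2 (0.0676).

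Of 31 measured targets of p53, the transcription factor of the DNA damage and stress response, 9 were higher and 0 lower, with a median of 0.26. Of the 31, 8 lay below 0, and the larger group added 3. Phlda3, which restrains AKT signalling, stood at 108, 199 and 381 in vehicle and at 223, 343 and 574 in mimic pools, 4 of which lay above every vehicle pool (0.86 ± 0.21, limma adjusted p = 0.0208). Eda2r, a receptor of the tumour necrosis factor receptor family, stood at 34.5, 56.2 and 123 against 87.4, 139 and 479 (1.26 ± 0.33, limma adjusted p = 0.0262). Plk2, a polo-like kinase, stood at 70.1, 111 and 234 against 109, 196 and 450 (0.91 ± 0.25, limma adjusted p = 0.0399), with more overlap than the others. Ccng1, cyclin G1, was called at both concentrations and rose without overlap by 1.05 ± 0.11. The call of Phlda3 was lost without vehicle replicate 8 (limma adjusted p = 0.06) or 7 (0.0525), and that of Eda2r without vehicle replicate 2 (0.0806), 3 (0.0641), 8 (0.0572) or 6 (0.0562). That of Plk2 was lost in 12 of 20 cases (highest 0.11, without vehicle replicate 2) and in edgeR (adjusted p = 0.0538), and 4 members were higher in the libraries over 5 M reads.

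Of 36 measured genes of apoptosis 3 were higher and 0 lower, with a median of 0.10. That is 8.33% called, against 4.02% of all genes tested, too few calls to read as a result about apoptosis. Casp8, the initiator caspase of death receptors, was added by the larger group and stood at 5.35, 8.65 and 32.8 in vehicle against 9.06, 29.7 and 82.6 in mimic pools (1.51 ± 0.41, limma adjusted p = 0.036). Bak1, which permeabilises mitochondria, rose by 1.52 ± 0.32, and Apaf1, the core of the apoptosome, by 0.72 ± 0.19. Casp8 lost its call in 9 of 20 such fits with 1 library left out (limma adjusted p up to 0.0915, vehicle replicate 2) and Apaf1 lost it in 3 (0.0848, 0.0793 and 0.0671 without vehicle replicates 2, 6 and 3). Casp8 did not pass in edgeR (adjusted p = 0.0722). Vehicle pools alone would not have carried Casp8 past the filter on low values, so nothing is read from its call.

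Of 33 measured heat shock genes 6 were higher and 0 lower (median 0.13). Hspa1b, an inducible HSP70 gene, stood at 0, 55.6 and 77.1 in vehicle and at 59.8, 138 and 398 in mimic pools, 12 of which lay above every vehicle pool (2.27 ± 0.58, limma adjusted p = 0.024). Its near-identical copy Hspa1a, named for that reason, stood at 0.44 ± 0.93 (limma adjusted p = 0.871), and the split of reads between them is uncertain. Stip1, which links HSP70 to HSP90, rose by 0.41 ± 0.11 (limma adjusted p = 0.0378), which did not pass without any 1 of 13 libraries (highest 0.0998, vehicle replicate 2). The small heat shock protein genes Cryab and Hspb1 rose by 1.04 ± 0.19 and 0.66 ± 0.14. Of 49 measured genes of the NRF2, glutathione and redox list 10 were higher and 0 lower (median 0.14). The larger group added Gpx2, a glutathione peroxidase, at 0, 16.1 and 43.1 against 16.4, 51.0 and 129 (1.95 ± 0.55, limma adjusted p = 0.0437), which did not pass without any 1 of 15 libraries (highest 0.0954, vehicle replicate 2) or in edgeR (adjusted p = 0.0657). Txnrd1, thioredoxin reductase, and Gsto1, a glutathione transferase, rose without overlap by 0.74 ± 0.11 and 0.88 ± 0.11. The reductase gene Cbr2 was near 0 in vehicle, at 0, 0 and 3.57 normalized counts, and stood at 12.0, 58.0 and 260 in mimic pools. It is counted among the 10 but passed the filter on low values only through mimic pools, so nothing is read from its call.

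Of 40 measured genes of the tricarboxylic acid cycle and fatty acid oxidation 5 were higher and 0 lower (median 0.11). Of these 5, 3 were called at neither concentration alone, beside 180 of 606 calls over all genes tested. Str let-7f alone called 4 members, of which at most 2 were called again with all mimic pools. Cpt2 encodes the inner-membrane step that brings long-chain acyl groups into mitochondria. It stood at 74.0, 152 and 334 in vehicle and at 155, 270.1 and 500.3 in mimic pools (0.92 ± 0.25, limma adjusted p = 0.0338). Ehhadh, the bifunctional enzyme of peroxisomal oxidation, was low, at 0.865, 15.8 and 19.4 against 7.83, 33.2 and 65.1, with 12 mimic pools above every vehicle pool (1.60 ± 0.46, limma adjusted p = 0.0493). Vehicle pools alone would not have carried Ehhadh past the filter on low values, so nothing is read from its call or from that separation. Dlst, a subunit of 2-oxoglutarate dehydrogenase, rose without overlap by 0.43 ± 0.09 (limma adjusted p = 0.00476). With 1 library left out, Cpt2 lost its call in 6 of 20 fits and Ehhadh in 16 (limma adjusted p up to 0.0927, vehicle replicate 8, and 0.106, vehicle replicate 7). Neither Cpt2 nor Ehhadh passed in edgeR (adjusted p = 0.0896 and 0.0692), and 1 member of the list passed in the libraries over 5 M reads.

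Carriers of nutrients held too few calls to read as a result about nutrient transport. Of 32 measured genes 2 were higher and 2 lower (12.5% called, against 4.02% of all genes tested). Beside 180 of 606 calls over all genes tested, 3 of these 4 were called at neither concentration alone. Beside the arginine carrier Slc7a1, Slc38a4, an imprinted carrier of neutral amino acids, was lower, at 1241, 1614 and 2014 in vehicle against 769.5, 1172 and 1396 in mimic pools (-0.43 ± 0.12, limma adjusted p = 0.0392). Slc2a8, the glucose transporter GLUT8, was higher, at 112, 192 and 253 against 202, 291 and 344, with 10 mimic pools above every vehicle pool (0.63 ± 0.16, limma adjusted p = 0.0253). The glutamate carrier gene Slc1a1 rose by 0.50 ± 0.10. Slc38a4 did not pass without any 1 of 8 libraries (highest limma adjusted p = 0.115, vehicle replicate 1), and Slc2a8 without vehicle replicate 2 (0.0805) or 1 (0.068). In the libraries over 5 M reads 0 of the 32 passed in limma.

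Of 41 measured genes of endocytosis 6 were lower and 1 higher. Cubn and Amn encode cubilin and its partner amnionless, an endocytic receptor pair of the primitive endoderm, and fell by 1.20 ± 0.15 and 4.02 ± 0.79, and the sorting nexin gene Snx5 fell by 0.38 ± 0.08. The larger group added Ehd4, a recycling ATPase gene, which stood at 572, 768 and 932 in vehicle and at 834, 1052 and 1748 in mimic pools (0.51 ± 0.14, limma adjusted p = 0.0417). Of 49 measured genes of lysosome and autophagy 4 were higher and 2 lower. Lamp2, an abundant lysosomal membrane protein, was added at 274, 385 and 548 against 374, 608 and 694 (0.55 ± 0.16, limma adjusted p = 0.0455). The melanosome and lysosome glycoprotein gene Gpnmb rose by 4.73 ± 0.32, and the hydrolase genes Gusb and Ctsd by 1.13 ± 0.18 and 0.57 ± 0.09. Of 50 measured Golgi genes 3 were lower and 2 higher (10% called, against 4.02% of all genes tested). Golm2 and Golm1, Golgi membrane proteins, fell by 0.81 ± 0.11 and 0.95 ± 0.19, Rab25, a GTPase of apical recycling, rose by 2.14 ± 0.41, and Man2a1, a mannosidase of N-glycan processing, was added at 0.52 ± 0.14 (limma adjusted p = 0.0386). Leaving out single libraries ended the calls of Ehd4 in 9 cases, Lamp2 in 15 and Man2a1 in 7 (limma adjusted p up to 0.117, vehicle replicate 3, and up to 0.125 and 0.116, vehicle replicate 2). Lamp2 and Man2a1 did not pass in edgeR (adjusted p = 0.063 and 0.0511).

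Smaller regulatory lists gave single additions. Of 22 measured immediate early genes 3 were higher and 1, Myc, was lower (median 0.37). Jun rose from 145, 182 and 209.9 to 313, 448 and 666 without overlap (1.34 ± 0.16, limma adjusted p = 8.54e-06), Jund by 0.54 ± 0.11 and Fos by 2.27 ± 0.53. Fos would not have passed the filter on low values through vehicle pools alone, so nothing is read from its call. Of 42 measured polycomb and trithorax genes 3 were lower and 1 higher (9.52% called, against 4.02% of all genes tested). The added gene was Setd1b, a histone H3 lysine 4 methyltransferase, at -0.30 ± 0.08 (limma adjusted p = 0.0426). The other lower genes were Epop (-0.68 ± 0.15) and Jarid2 (-0.28 ± 0.08), accessory proteins of the polycomb repressive complex. Of 40 measured genes of mRNA decay 2 were lower and 1 higher (7.5% called). They were Btg3 with the larger group, Zfp36l1, which targets AU-rich mRNAs (-0.73 ± 0.13), and Btg2 (0.77 ± 0.19). Counts this small are not read as results about polycomb or mRNA decay. Leaving out single libraries ended the call of Setd1b in 14 cases and of Jarid2 in 11 (highest limma adjusted p = 0.121 and 0.107, without vehicle replicates 1 and 5). It ended that of Btg2 without vehicle replicate 6 (0.0631), 7 (0.0523) or 3 (0.0502) and that of Btg3 without vehicle replicate 2 (0.0724) or 8 (0.0636). In the libraries over 5 M reads 3, 1 and 1 members of these lists were called.

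Transcripts of the 2-cell stage, normally silent again by the blastocyst, were present in mimic pools. Of the list, 19 members were measured. The 3 that are named here stood below a normalized count of 10 in every vehicle pool and passed the filter on low values only through mimic pools, so their levels are given with no test and nothing is read from their calls. For Zscan4c, a marker of the 2-cell state, vehicle libraries held 0 reads, and 10 of 13 mimic libraries held 552. Against a floor of 3 reads summed over vehicle libraries, it was at least 118-fold higher. Str let-7f replicate 10 held 46.0% of those reads. The deubiquitinase genes Usp17le and Usp17lc had 9 and 38 reads in vehicle and 713 and 1353 in mimic libraries. Single copies of these multigene families are uncertain, since reads of near-identical copies are divided among them.

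**Figure D5:**
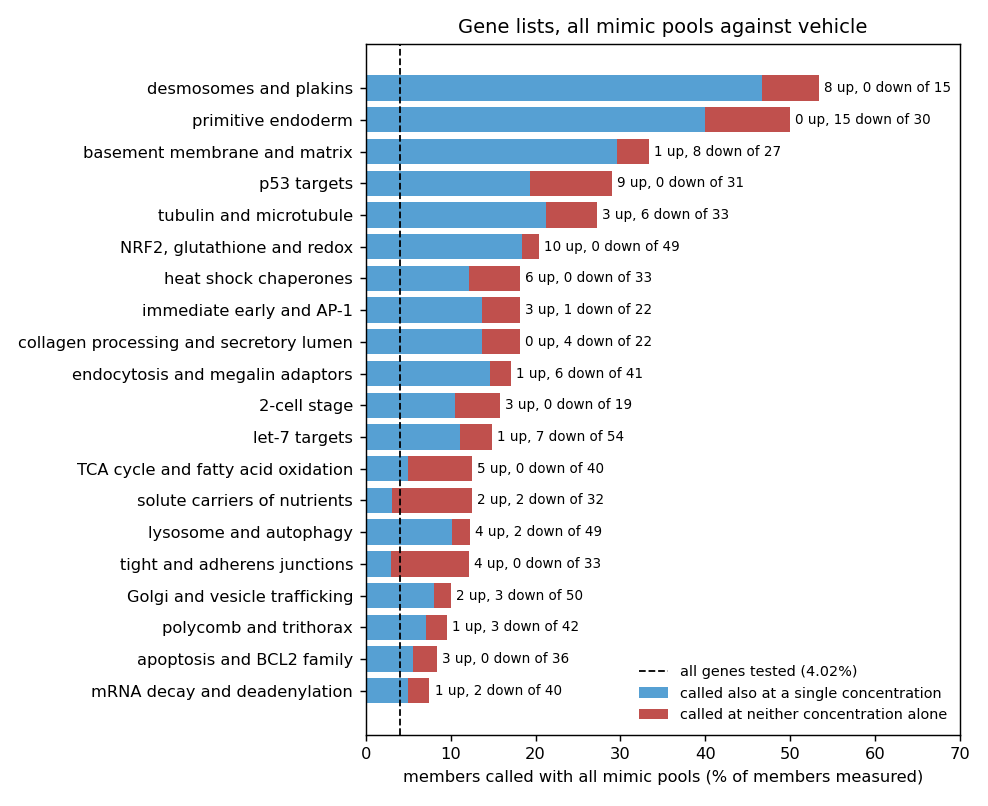
Bars give the percentage of measured members called with all mimic pools for the 20 gene lists with at least 3 calls and at least 1 call made at neither concentration alone (red). The dashed line marks the 4.02% of all genes tested, above which each of these lists lies, as their choice by calls partly ensures, and the text at each bar gives the counts. The called members of the 2-cell stage list passed the filter on low values only through mimic pools, so nothing is read from that bar. Cbr2, counted in the bar of the NRF2 list, passed it likewise. Vehicle pools alone would not have carried Casp8, Ehhadh and Fos past it either. These are counted in the bars of apoptosis, of fatty acid oxidation and of immediate early genes.

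Of 70 lists, 50 others did not meet these limits, and 17 of them held no call. Those 17, with medians between -0.15 and 0.36, included glycolysis, nuclear and mitochondrial genes of oxidative phosphorylation, cytosolic and mitochondrial ribosomal proteins, translation factors, the proteasome, folding in the endoplasmic reticulum, DNA replication and repair, splicing, cilia and the interferon response. The epiblast list had 2 higher members of 30 measured (median -0.06), and the trophectoderm list had 3 higher and 1 lower of 31 (median 0.01). In all, the lists held 2153 measured genes, 169 of the calls and 40 of the 180 genes called at neither concentration alone, so most of these 180 lie outside the functions described here.

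At the threshold the calls are a matter of small differences. Just inside lay Nup107, a nuclear pore gene, at -0.62 ± 0.18, and Luzp1 at 0.40 ± 0.11 (both with a limma adjusted p of 0.0494). Just outside lay Rhebl1 at -1.32 ± 0.38 and Dcaf15 at -0.83 ± 0.24 (limma adjusted p = 0.0501 and 0.0502). Pooling also lost calls, since 54 genes called at a single concentration, 21 at the lower and 33 at the doubled concentration, were not called with all pools. Between the concentrations 0 of 15068 genes passed in limma (0%), 608 had an unadjusted p under 0.05, and edgeR called 1 and DESeq2 10. The smallest p belonged to Szrd1, with medians of 554 normalized counts for vehicle, 431 for Str let-7f and 989.9 for 2x Str let-7f, and to Acbd4, at 157, 209 and 60.7. The difference between the concentrations had a median 95% interval of 0.68 to either side on the log2 scale, before any adjustment. Calls were made after adjustment over all genes tested, so differences larger than this could also be missed. The largest difference was 3.90, and the smallest limma adjusted p was 0.126.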

How the data were processed

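RNA sequencing counts of 20 pools of 10 mouse blastocysts were analysed. The deposited table holds the authors' normalized counts, a gene-level signal at or above 0. Per the submitters' processing notes, the tools were FastQC 0.12.1 and MultiQC 1.28, DESeq2 1.48.2, Trimmomatic 0.39 and kallisto 0.50.1, with the build GRCm39. How transcripts were summed to genes is not given in the sources used here. Values were whole multiples of 1 read within 0.01 in 100% of cases, so reads and depths were recovered. One entry without a gene name (up to 0.0618% of reads) was left out, and 946 genes below the filter were not tested. Of genes named by rule, Cbr2, Casp8, Ehhadh, Fos, Zscan4c, Usp17le and Usp17lc would not have passed the filter on vehicle pools alone. Nup62cl and Dnase1l2 would not have passed it on mimic pools alone. Floors cover counting error only.

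limma 3.58.1 in R 4.3.3, with a trended prior and no covariate, was fitted on log2(normalized count + 1). All mimic pools against vehicle was a fit of 2 groups, and the single comparisons came from a fit with 1 mean per labelled group. All share the 7 vehicle pools. The step was tested on simulated data. edgeR 4.0.16 and DESeq2 1.42.0 on recovered reads, other pseudocounts, filters and scalings, array weights, a robust prior, the Y-linked level as a covariate, equal weight of both concentrations, a replicate block, libraries over 5 M reads and leaving out each library were alternatives.

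Genes were named by rule: the 12 with the smallest p in each direction among those called at neither concentration alone, without predicted models and pseudogenes, up to 4 called members of each described list, lower genes of that class with an 8-base site, Lin28a, Trim71, Igf2bp1 and Hmga2, and the genes nearest the threshold. Others are marked, and some genes the rule names are not reported here. Members and lists were chosen with earlier results of these data known. UTRs were matched for 14109 genes by symbol and for 324 through an earlier symbol, with 635 unmatched. Whether pools stem from separate litters or days is not in the labels. The p-values therefore measure pool-to-pool spread, which may be technical.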

Additional observations from a re-analysis of the deposited data

Results flagged for a closer look

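Within the labelled groups, a single pool stood apart from the rest in 28 of 303 groups of values of the 101 named genes, by a gap ratio on the log2 scale above Dixon's 95% critical value. Chance gives about 1 in 20. Of these 28, 14 were in Str let-7f, 8 in vehicle and 6 in 2x Str let-7f, and no cause was tested.

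In vehicle, replicate 7 was lowest for Pon2 (gap ratio 0.607, 198 against 260.3 normalized counts in the next pool) and Ehhadh (0.659, 1 read). Replicate 8 was lowest for Serpinh1 (0.573, 1547 against 2104) and Fos (0.645, 0 reads). Replicate 6 was lowest for Hspa1b (0.805, 0 reads) and replicate 2 for Gpx2 (0.658, 0 reads). Replicate 5 was the only vehicle pool with reads of Usp17le (1, 9 reads), and replicate 3 was highest for Usp17lc (0.698, 33 reads).

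In Str let-7f, replicate 1 was highest for Crybg3 (0.559, 626 against 304) and Ckap4 (0.573, 1061 against 739) and lowest for Arrdc4 (0.556, 62.6 against 157) and Ehhadh (0.616, 4 reads). Replicate 2 was lowest for Tuba4a (0.531), Eppk1 (0.564, 275 against 517) and Hmga2 (0.594) and highest for Snx5 (0.594, 4114 against 3287). Replicate 9, the library of lowest depth, was lowest for Stmn1 (0.546) and Luzp1 (0.608) and highest for Man2a1 (0.599) and Rhebl1 (0.712, 11 reads). Replicate 10 was lowest for Dsc2 (0.561, 869 against 1055), and replicate 6 was highest for Szrd1 (0.534).

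In 2x Str let-7f, replicate 1 was highest for Ckap4 (0.713, 984 against 572) and Nup107 (0.729, 1230.0 against 602) and lowest for Hmga2 (0.75, 1494 against 2157). Replicate 4 was lowest for Slc1a1 (0.758) and highest for Luzp1 (0.797, 3099 against 1866), and replicate 5 was lowest for Jarid2 (0.759).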

How the results depend on the processing

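Of the 606 calls 0 changed direction in the alternatives in which they were tested. With a filter of 10 in 10 libraries 31 of them were not tested, and in the libraries over 5 M reads 8. The number of genes called with all mimic pools was 1084 with array weights, 1052 with DESeq2 on recovered reads and 336 in the libraries over 5 M reads, and other settings stayed within 1.5 times the reported count. The number called at neither concentration alone was 312 with array weights. Between the concentrations edgeR called 1 gene, Szrd1, and DESeq2 10. Leaving out single libraries gave 430 to 708 calls for all mimic pools (fewest without vehicle replicate 2), 124 to 231 for genes called at neither concentration alone, and 0 to 1 between the concentrations. The call was Acbd4 without Str let-7f replicate 3, Cbl without 2x Str let-7f replicate 2 and Szrd1 without 2x Str let-7f replicate 5. The whole-profile pseudo-F ranged from 1.76 to 2.06 in these fits (exact permutation p at most 0.000184), was 1.74 in the libraries over 5 M reads (p = 0.002) and 2.17 with a pseudocount of 10. Of the 606 genes 516 were called in edgeR and 583 in DESeq2, and 348 on leaving out any 1 library, against 115, 165 and 10 of the 180 called at neither concentration alone. With the replicate number as a block 503 genes were called, 393 of them among the 606, and 64 of the 180 called at neither concentration alone stayed called, while 178 genes formed that class anew. The numbers were not taken as pairs in the main fit. The 14 pairs of libraries with the same number had a median correlation of deviations of 0.0506 (-0.00657 to 0.0922), against -0.00767 in other pairs. None of the 14 reached 0.1, but vehicle replicate 7 and 2x Str let-7f replicate 3, of unlike number, stood at 0.117. Of 16 libraries 4 correlated best with their own number. The labels do not say whether a number marks a shared day or batch, and these correlations cannot exclude one. The cause of the differences between settings was not tested. Depth limits low genes, since 3 reads correspond to 0.0511 to 1.94 RPM.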

Other observations

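The 10 genes of the 180 that stayed called on leaving out any 1 library, a set chosen after its values were seen, were Col4a2, Serpinh1, Slc7a1, Nup62cl and Hnrnpdl, which were lower, and Phactr2, Lysmd2, Pon2, Ocln and Hspa1b, which were higher. Their highest limma adjusted p over these 20 fits lay between 0.0335 for Serpinh1 and 0.0498 for Hnrnpdl. In the libraries over 5 M reads 7 of these 10 were not called, namely Col4a2 (limma adjusted p = 0.0956), Serpinh1 (0.0793), Slc7a1 (0.0933), Phactr2 (0.0579), Lysmd2 (0.105), Ocln (0.0586) and Nup62cl (0.168). Nup62cl did not pass in edgeR either (adjusted p = 0.152). Mimic pools alone would not have carried Nup62cl past the filter on low values, which limits what its call can mean. With the replicate number as a block, Hnrnpdl (limma adjusted p = 0.0917) and Lysmd2 (0.0849) did not pass.

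Single members of lists outside the described ones were also called with all mimic pools and at neither concentration alone, again named after their values were seen. Npm1, the nucleolar protein nucleophosmin, stood at -0.29 ± 0.08 (log2 fold change ± SE; limma adjusted p = 0.0395) and was the 1 call among 44 measured genes of ribosome biogenesis. Pfas, an enzyme of purine synthesis, fell by 0.37 ± 0.11 (limma adjusted p = 0.0463), and the RNA helicase gene Ddx17 by 0.30 ± 0.08 (limma adjusted p = 0.0241). Amotl2, an angiomotin of the Hippo pathway, fell by 0.45 ± 0.13 (limma adjusted p = 0.0438). Dppa2, a pluripotency-linked chromatin gene, rose from 1031 ± 244 to 1538 ± 322 normalized counts (SD, n = 7 and 13; limma adjusted p = 0.0215), and Piwil2, of the piRNA pathway, from 359 ± 57.5 to 594 ± 185 (limma adjusted p = 0.0353).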
